A study of Mus musculus with 12 samples.

Results

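Recipient BV2 cells that had been given vesicles of LPS-treated cells were compared directly with recipients of vesicles from TGF-β-treated cells. BV2 is an immortalised mouse microglial line. The 6 libraries, 3 per group, were taken by their titles from 12 libraries in the series. Extracellular vesicles (EVs) released by other BV2 cultures were left on resting cells for 24 h, at an equal dose per well according to the design text, which names control and LPS vesicles only. The groups are named here by the treatment of the vesicle donors: LPS_EV (lipopolysaccharide) and TGFB_EV (transforming growth factor beta). Recipients of vesicles from control cells, control_EV with 3 libraries, were used as a background and not in the test, and IL10_EV, the remaining 3, entered only a fit of all 12 libraries. All these cells received vesicles, and no group received LPS or TGF-β without them, so agent carried over in a vesicle preparation cannot be told apart from vesicle cargo. The doses of both agents are not in the labels, which also do not say that replicates were separate cultures. P-values therefore cover only the variation among these wells and libraries, which may be technical.

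Microglia are the resident macrophages of the brain. LPS binds Toll-like receptor 4 and through NF-kB and interferon signalling raises cytokines, acute-phase proteins and oxidant-producing enzymes, while TGF-β acts through receptor kinases and SMAD proteins and is known for holding microglia in a resting state. Vesicles carry proteins, lipids and RNA from one cell to another, and microglial vesicles are studied as carriers of such states.

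Library totals were 11141800 ± 428695 counts in LPS_EV and 11837832 ± 652369 in TGFB_EV (SD, n = 3), and an exact two-sided permutation test gave p = 0.3 (no p under 0.1 is possible with 3 against 3). At these depths 3 counts correspond to between 0.238 and 0.279 CPM (counts scaled to a common library total), which covers counting error only. Many rows of the tables hold reads of another gene than the one in their label. The 90 rows labelled as ribosomal protein genes, which are highly expressed in all cells, had a median of 0.0871 CPM. Identity was therefore estimated by shifting each row's exons along the chromosome, with neighbouring rows sharing a shift, and the shifts were fitted without the group labels. Of 124 stretches 106 were supported, holding 92.1% of 51992 rows with a position, with a median displacement of 138 kb. In a fit that left ribosomal protein genes out of its reward, the 24 rows that met such genes had a median of 1270 CPM. Of 7087 supported rows of at least 5 CPM, 85.4% met an exon of a protein-coding gene and 14% met the gene of their label. A row is therefore given by its label and by the gene that its moved exons met, which is an estimate. Statements on function concern the gene met, and a row holds only the reads of the exons that overlap, so its level is not the level of the whole gene.

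The genes of microglia were present. For 7 of 16 marker genes of microglia and macrophages a row met that gene alone, and all 7 were at 5 CPM or more, with a summed level of 5840 to 6640 CPM in LPS_EV and 4780 to 5770 CPM in TGFB_EV. Rows for marker genes of neurons (1 of 6 met), astrocytes (1 of 6) and B cells (2 of 6) stayed at or below 0.161 CPM in sum. Fibroblast (4 of 6) and endothelial (2 of 6) marker rows reached at most 1.75 CPM in sum. Oligodendrocyte rows (3 of 6) summed to 20.8 to 29.7 CPM in LPS_EV and 20.5 to 26.8 in TGFB_EV, and T cell rows (2 of 6) to 15.0 to 18.8 and 18.0 to 24.0. In each of these last lists 1 gene reached 5 CPM, and their part in the results was not tested. In bulk RNA, fewer cells and less RNA per cell cannot be told apart.

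One TGFB_EV library stood apart. Along the first principal component of the 6 libraries, which held 36.0% of the variance, LPS_EV lay at -14.2, -7.45 and -12.7. TGFB_EV replicates 1 and 2 lay at 15.7 and 20.9, but replicate 3 at -2.18, close to the control_EV libraries projected on the same axis (-1.93, -1.50 and 1.54). On the second component replicate 3 lay at 19.0, away from control_EV at 3.72, 3.99 and 1.26. The axes were fitted without control_EV, so its place on them is a weak guide to likeness. The counts of TGFB_EV replicates 1 and 2 differed by a chi-square of 4.43 per degree of freedom, within the 3.58 to 5.91 seen among LPS_EV pairs, whereas replicate 3 differed from them by 10.1 and 17.3. No pair of libraries agreed within sampling noise, so all were counted as separate samples. Values without replicate 3 are given below beside a number of the named rows, and counts without it beside the gene lists. This library was singled out on the same values that are compared. Adjusted p-values and counts of calls without it are therefore a description of how much depends on it, and not a test.

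**Figure D1:**
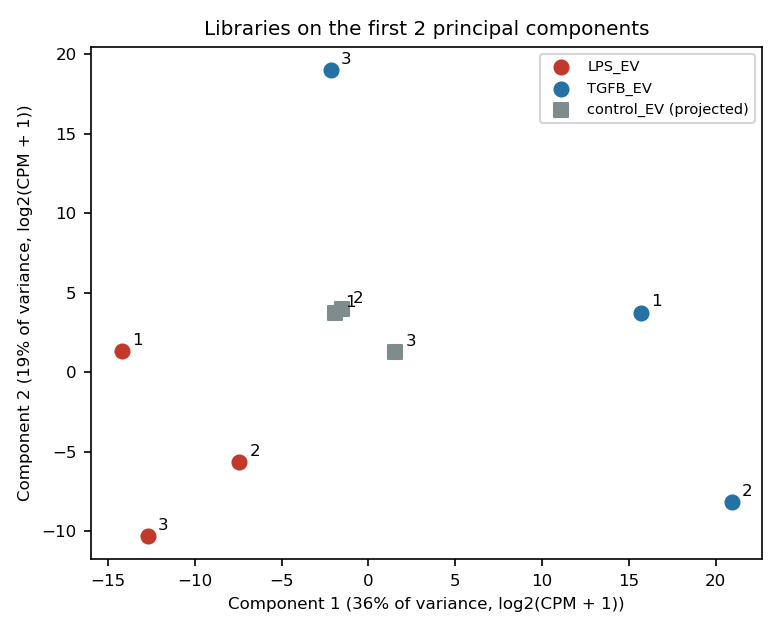
The 6 libraries on their first and second principal components (log2(CPM + 1), percent of variance on each axis), with the 3 control_EV libraries projected; numbers are replicate numbers. LPS_EV lies on the left at -14.2 to -7.45 and TGFB_EV replicates 1 and 2 on the right at 15.7 and 20.9, while TGFB_EV replicate 3 lies at -2.18 on the first component and at 19.0 on the second.

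Rows meeting acute-phase and inflammatory genes were among the larger named rises in LPS_EV. Several other large rises were in rows where LPS_EV lay at the level of control_EV and TGFB_EV lay under both. Single rows meeting a chaperone of the endoplasmic reticulum together with its neighbour Rabepk, the immediate-early gene Fos, and Zyx and Flnc were lower in LPS_EV. The last 2 were the only rows called of 25 meeting cytoskeleton and adhesion genes, whose median log2 fold change was -0.01. At a Benjamini-Hochberg adjusted p under 0.05, edgeR's quasi-likelihood test called 120 of 10569 rows, 1.14% of those tested. Of these, 87 were higher in LPS_EV (0.823%) and 33 were lower (0.312%). In 87 of the called rows all 3 LPS_EV libraries lay above all 3 TGFB_EV libraries, in 32 all lay below, and in 1 the groups overlapped. For comparison, LPS_EV lay wholly above TGFB_EV in 9.94% of all rows tested and wholly below in 9.85%. Most changes were small: 62 of the 120 were under 1.5-fold and 20 were over 2-fold. The median log2 fold change of all rows was 0.005.

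The count depended strongly on the libraries used. Without TGFB_EV replicate 3 the test called 1229 of 10946 rows (11.2%), 661 higher (6.04%) and 568 lower (5.19%), and these included all 120. Leaving out any 1 of the others gave between 12 and 66 calls. When all 12 libraries of the series shared 1 estimate of the spread, edgeR called 0 of 11267 rows. Of these rows 1442 had an unadjusted p under 0.05, and the lowest adjusted p was 0.0585. DESeq2 on the 6 libraries called 244 rows, 3.09% of the 7905 to which it gave an adjusted p. The edgeR shares are over all rows tested, so the DESeq2 share has another base. All 120 rows kept their direction when each library was left out in turn. For the 87 and 32 called rows whose groups did not overlap this was nearly fixed in advance. Of the 120, 9 were called in all 6 fits with 1 library left out. Of these 9, the rows that met Saa3, Acod1, Il1a, C3, Ppp3r1, Ankdd1a and Tmem38b were higher in LPS_EV. The others were the rows labelled Bend6 (higher) and Serpinb1a (lower). Neither met a protein-coding exon by 100 bp or more, and for Serpinb1a the genes met differed between 4 fits of the displacement.

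The row with the largest rise among those that the naming rule admits met Saa3, an acute-phase serum amyloid A protein that macrophages make on stimulation. It is labelled LOC102637012 (ENSMUSG00000111473, chromosome 7, 47057353 to 47074687 in GRCm38), and its displacement was -350700 bp. Its levels were 264, 878 and 658 CPM in LPS_EV and 128, 119 and 79.5 in TGFB_EV, beside 119, 193 and 160 in control_EV. Every LPS_EV library was above every TGFB_EV library, and LPS_EV replicate 1 was well below the other two. The difference was 5.53-fold (log2 fold change 2.47 with SE 0.30, edgeR adjusted p = 0.00194), with a log2 value between 2.08 and 2.82 when each library was left out.

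The row labelled Mllt1 (chromosome 17, 56892611 to 56935415) met C3, the central component of complement. It had 409, 538 and 487 CPM in LPS_EV and 314, 269 and 307 in TGFB_EV, with 315, 352 and 332 in control_EV. The groups did not overlap, and TGFB_EV was near control_EV (log2 fold change 0.69 with SE 0.09, adjusted p = 0.00198). These were 2 of 9 tested rows meeting genes of an acute-phase and complement list that were called, with none lower. Of all rows tested 0.823% were called higher and 0.312% lower, and the counts of every list below stand beside these shares. Both were called in each of the 6 fits with 1 library left out. The median log2 fold change of the 9 was 0.14, and it was -0.02 without LPS_EV replicate 1. With TGFB_EV replicate 3 left out, 4 of the 9 were called higher and 1 lower, where 6.04% and 5.19% of all rows were. The row labelled Gm13003, which met C1qc, a chain of the complement starter C1q, had 38.7 ± 3.21 CPM in LPS_EV and 50 ± 1.13 in TGFB_EV and was not called (log2 fold change -0.37, adjusted p = 0.0662).

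Of 21 rows meeting genes of NF-kB and the inflammatory response, 4 were called higher and none lower, and their median log2 fold change was 0.14. The row labelled Gm34589 (chromosome 14, 102818164 to 102834758) met Acod1, the enzyme that makes itaconate in activated macrophages, by 910 bp. Its levels were 176, 265 and 219 CPM in LPS_EV and 75.2, 58.3 and 110 in TGFB_EV, and control_EV lay between at 98.4, 142 and 107. The groups were fully separate, with TGFB_EV replicate 3 the nearest to LPS_EV (log2 fold change 1.44 with SE 0.18, adjusted p = 0.00194). The row labelled F830045P16Rik (chromosome 2, 129458359 to 129536602) met Il1a, the alarmin cytokine interleukin-1 alpha. It had 49.5, 77.5 and 64.8 CPM in LPS_EV and 31.7, 30.3 and 28.8 in TGFB_EV. TGFB_EV was tight here and lay just under control_EV, at 33.4, 32.5 and 35.4 (log2 fold change 1.08 with SE 0.13, adjusted p = 0.00194).

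Smaller rises were found for a chemokine and a TNF-induced gene. The row labelled Heatr6, which met Ccl3, a chemokine that draws leukocytes, had 465 ± 41.6 CPM in LPS_EV and 358 ± 18.7 in TGFB_EV (log2 fold change 0.38, adjusted p = 0.0217). The row labelled Gm266, which met Tnfaip2, had 989 ± 57.0 and 815 ± 38.5 CPM (log2 fold change 0.28, adjusted p = 0.0424). The groups were apart in both rows. Other members were not called: the rows that met the lectin receptor gene Clec4d (labelled Clec4e) and the inducible nitric oxide synthase gene Nos2 (labelled Ksr1) differed by 1.34 and 1.24 on the log2 scale (adjusted p = 0.0633 and 0.0784). The Nos2 row had 22.3, 30.1 and 31.9 CPM in LPS_EV against 9.47, 5.11 and 20.9 in TGFB_EV, so that TGFB_EV replicate 3 nearly reached the lowest LPS_EV value. Without that library its log2 fold change was 1.95. In that fit 9 of the 21 rows were called higher and 1, which met Il12b, lower, beside 6.04% and 5.19% of all rows. Without LPS_EV replicate 2, LPS_EV replicate 3 or TGFB_EV replicate 1, the calls of the list fell to 2, the rows that met Il1a and Acod1. Rows that met Relb, an NF-kB subunit (labelled Ceacam19), and Tlr4, the LPS receptor, had log2 values of 0.27 and -0.08 for LPS_EV over TGFB_EV (adjusted p = 0.253 and 0.827).

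Of 20 rows meeting interferon-response genes, 2 were called higher and none lower (median 0.12). No row of this list was called without LPS_EV replicate 2, LPS_EV replicate 3 or TGFB_EV replicate 1, and 1 was without TGFB_EV replicate 2. Without TGFB_EV replicate 3, 6 were called, all higher, beside 6.04% of all rows. The 2 rows met Oasl2 and Oas3, of the oligoadenylate synthetase family that senses double-stranded RNA. The row labelled Git2, which met Oasl2, had 51.5, 69.7 and 59.0 CPM in LPS_EV and 38.9, 39.3 and 42.5 in TGFB_EV (log2 fold change 0.58 with SE 0.11, adjusted p = 0.0217). The row labelled Ddx54, which met Oas3, had 122, 157 and 174 CPM against 104, 97.8 and 116 (log2 fold change 0.51 with SE 0.11, adjusted p = 0.0431). In each row TGFB_EV lay at the level of control_EV, which averaged 41.1 and 108 CPM, and LPS_EV above it. The row labelled Cfap73, which also met Oas3, had 53.3 ± 10.6 and 37.0 ± 2.21 CPM and was not called (log2 fold change 0.53, adjusted p = 0.0577).

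Of 15 rows meeting genes of oxidative stress and the NRF2 pathway, 2 were called higher and none lower (median 0.14). There were no calls without LPS_EV replicate 2, LPS_EV replicate 3 or TGFB_EV replicate 1. Without TGFB_EV replicate 3 there were 4 higher and 2 lower, beside 6.04% and 5.19% of all rows. The row labelled H2al1o (chromosome X, 9571901 to 9572409) met Cybb, which encodes the superoxide-making core of the NADPH oxidase of phagocytes. It had 124, 157 and 160 CPM in LPS_EV, 69.1, 55.7 and 103 in TGFB_EV and 81.8, 109 and 85.9 in control_EV. TGFB_EV replicate 3 was again the highest of its group and fell among the control values (log2 fold change 0.95 with SE 0.16, adjusted p = 0.0171, and 1.24 without that library). The row labelled Tfcp2 met Slc11a2, a ferrous iron transporter, and had 145, 206 and 183 CPM against 130, 136 and 108 (log2 fold change 0.51 with SE 0.11, adjusted p = 0.0474). A further row that met Slc11a2, labelled Csrnp2, had 21.3 ± 2.73 and 13.3 ± 3.69 CPM and was not called (log2 fold change 0.69, adjusted p = 0.0784). The row labelled Slc7a11 had 57.9, 85.4 and 76.2 CPM in LPS_EV and 45, 45.7 and 50.5 in TGFB_EV, a called rise of 0.64 on the log2 scale with adjusted p = 0.0217. Its moved exons overlapped the body of Slc7a11, the cystine transporter gene, but met its exons by less than 100 bp, so it is not counted in the list. The genes that this row met were not the same in all 4 fits of the displacement. The row labelled Gm6209, which met an exon of Slc7a11, had 26.4 ± 1.85 and 19.3 ± 1.64 CPM, with the groups apart, and was not called (log2 fold change 0.46, adjusted p = 0.0793).

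**Figure D2:**
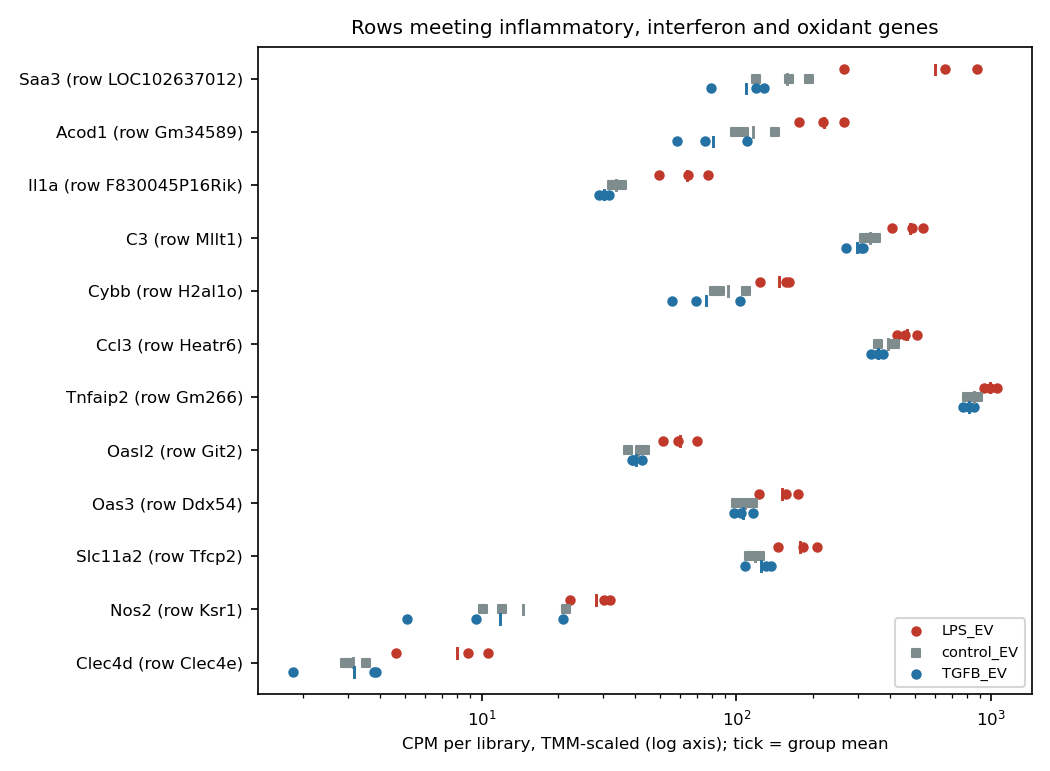
CPM per library on a log axis (points) and group means (ticks) for rows that met inflammatory, interferon and oxidant genes, with the row label in brackets. LPS_EV lies to the right of TGFB_EV in each row, by 5.53-fold for Saa3 and 1.21-fold for Tnfaip2, and the Nos2 and Clec4d rows were not called.

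The upstream sequences of 4 of these genes are shown, and that of Hspa5, from a row that was lower and also met Rabepk. They were picked because they hold short motifs that textbooks tie to acute-phase, interferon and folding-stress genes. Each is the stretch of 250 bases before the gene's start in RefSeq on GRCm38.p6, read 5′ to 3′ on the gene's strand: Saa3 at chr7:46715677-46715926 (minus), C3 at chr17:57228137-57228386 (minus), Cybb at chrX:9469325-9469574 (minus), Oas3 at chr5:120777660-120777909 (minus) and Hspa5 at chr2:34771840-34772089 (plus). Capitals mark matches, on either strand, to TTNNGCAA (a C/EBP-type core) in Saa3 and C3, to 2 GAAA runs with 2 bases between them (the core of an interferon-stimulated response element) in Saa3, Cybb and Oas3, and to CCAAT and CCACG with 9 bases between them (the endoplasmic reticulum stress element) in Hspa5. The marked matches do not overlap one another.
Saa3: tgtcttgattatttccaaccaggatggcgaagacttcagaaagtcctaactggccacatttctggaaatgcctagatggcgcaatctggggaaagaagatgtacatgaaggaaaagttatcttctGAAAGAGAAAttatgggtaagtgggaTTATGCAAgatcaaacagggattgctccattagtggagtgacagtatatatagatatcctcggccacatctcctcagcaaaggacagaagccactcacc
C3: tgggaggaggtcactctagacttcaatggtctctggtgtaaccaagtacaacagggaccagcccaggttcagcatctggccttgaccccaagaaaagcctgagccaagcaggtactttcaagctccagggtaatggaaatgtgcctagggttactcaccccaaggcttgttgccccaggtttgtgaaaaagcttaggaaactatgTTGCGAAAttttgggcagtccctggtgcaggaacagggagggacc
Cybb: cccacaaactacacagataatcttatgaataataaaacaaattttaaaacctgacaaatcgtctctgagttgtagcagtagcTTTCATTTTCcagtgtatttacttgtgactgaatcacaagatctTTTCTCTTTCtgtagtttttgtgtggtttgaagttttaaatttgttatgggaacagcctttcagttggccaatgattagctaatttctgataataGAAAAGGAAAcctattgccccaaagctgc
Oas3: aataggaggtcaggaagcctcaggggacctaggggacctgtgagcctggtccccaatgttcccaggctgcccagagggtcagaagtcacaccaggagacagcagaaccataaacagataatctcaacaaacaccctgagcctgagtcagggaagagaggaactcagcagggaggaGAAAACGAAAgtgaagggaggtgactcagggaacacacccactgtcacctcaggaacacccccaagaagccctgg
Hspa5: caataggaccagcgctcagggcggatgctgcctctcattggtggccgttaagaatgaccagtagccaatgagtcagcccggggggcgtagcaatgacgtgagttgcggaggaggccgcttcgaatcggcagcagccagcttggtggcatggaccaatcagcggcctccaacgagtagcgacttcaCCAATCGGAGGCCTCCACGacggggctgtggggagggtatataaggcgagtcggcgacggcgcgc

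In the Saa3 stretch 1 match to each of 2 motifs is present, in Cybb 3 matches to the interferon motif, and in Hspa5 1 match to the stress element. Among 32536 such stretches of the same length, 9.57% held TTNNGCAA, 2.98% the interferon motif and 0.114% the stress element, which was found in 37. Of 25 genes met by named rows that were higher, 21 had a sequence, and 5 of these held TTNNGCAA, 3 the interferon motif and none the stress element. Of 19 genes met by named rows that were lower, all with a sequence, 2 held the first, none the second and 1 the third. The AP-1 motif TGANTCA was found in 6.73% of all stretches, in 4 of the 21 and in 2 of the 19, and is left in lower case above. A match is a run of letters and does not show that a factor was bound.

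Several large differences were in rows where TGFB_EV was low and LPS_EV was at the level of control_EV. The row labelled Pno1 (chromosome 11, 17203198 to 17211568) met Ppp3r1, the regulatory subunit of the calcium-dependent phosphatase calcineurin, by 132 bp. It had 13.1, 8.21 and 8.56 CPM in LPS_EV, 2.11, 1.21 and 2.33 in TGFB_EV and 11.0, 7.32 and 7.74 in control_EV. All 3 TGFB_EV values were under those of the other 6 libraries (log2 fold change 2.39 with SE 0.28, adjusted p = 0.00194). The row labelled Tada3 (chromosome 6, 113366025 to 113377883) met Camk1, a calcium/calmodulin-dependent kinase. It had 108, 90.1 and 89.6 CPM in LPS_EV, 40.4, 33.8 and 69.5 in TGFB_EV and 102, 86.7 and 91.3 in control_EV. TGFB_EV was again the group that stood apart, least so in replicate 3 (log2 fold change of 1 with SE 0.19, adjusted p = 0.0217, and 1.37 without that library). Among 25 rows meeting genes of calcium and calcineurin signalling these 2 were the ones called, and the median of the 25 was -0.03. The Camk1 row was not called without LPS_EV replicate 1, 2 or 3 or TGFB_EV replicate 1. Without TGFB_EV replicate 3 the list had 3 calls higher and 2 lower, beside 6.04% and 5.19% of all rows. The rows that met the calcium pump genes Atp2a3 (labelled Ncbp3) and Atp2a2 (labelled Pptc7) had log2 fold changes of -0.53 and -0.23 and were not called (adjusted p = 0.127 and 0.172).

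The row labelled Tagap met Rnaset2a, a ribonuclease of the lysosome, and followed the same order. It had 17.4, 10.8 and 17.4 CPM in LPS_EV and 3.33, 2.77 and 7.88 in TGFB_EV, with a control_EV mean of 15.2 (log2 fold change 1.69 with SE 0.30, adjusted p = 0.0213, and 2.31 without TGFB_EV replicate 3). The rows labelled Rhbdf2, Lats1, Socs7 and Wipf2 met Prpsap1, Lrp11, Npepps and Msl1. Their log2 fold changes were 1.49, 1.10, 1.10 and 1.02 (adjusted p = 0.0489, 0.0359, 0.0235 and 0.0429), and without TGFB_EV replicate 3 they were 2.22, 1.08, 1.39 and 1.21. In each, LPS_EV and control_EV means were close (10 and 9.55, 11.2 and 10.6, 13.5 and 13, and 8.19 and 7.99 CPM) and the TGFB_EV mean was lower (3.51, 5.2, 6.27 and 4.01 CPM). The gene met by the Lats1 row was not the same in all 4 fits of the displacement. Other rows that met Npepps, a cytosolic aminopeptidase, did not follow: the row labelled Mrpl45 had 122 ± 8.69 and 119 ± 4.27 CPM and that labelled Gpr179 276 ± 4.02 and 243 ± 12.3, and neither was called. Nor did the row labelled Aanat, which met Prpsap1 and had 64.0 ± 3.37 and 65.8 ± 1.14 CPM.

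In rows that met Ankdd1a, Hal and Ap1ar, control_EV lay between the groups. The row labelled Pif1, which met Ankdd1a, an ankyrin repeat gene, had 18.7, 13.5 and 18.9 CPM in LPS_EV and 7.02, 4.51 and 6.03 in TGFB_EV, with 9.71, 13.5 and 6.57 in control_EV (log2 fold change 1.54 with SE 0.19, adjusted p = 0.00196). The control libraries spread over the gap between the other groups. The rows labelled Gm15915 and D030025E07Rik, which met the histidine ammonia-lyase gene Hal and Ap1ar, had log2 fold changes of 1.16 and 0.98, and that labelled Echdc3, which met its own gene, had 0.97 (adjusted p = 0.0333, 0.0360 and 0.0450). These values were 1.50, 1.25 and 1.26 without TGFB_EV replicate 3.

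**Figure D3:**
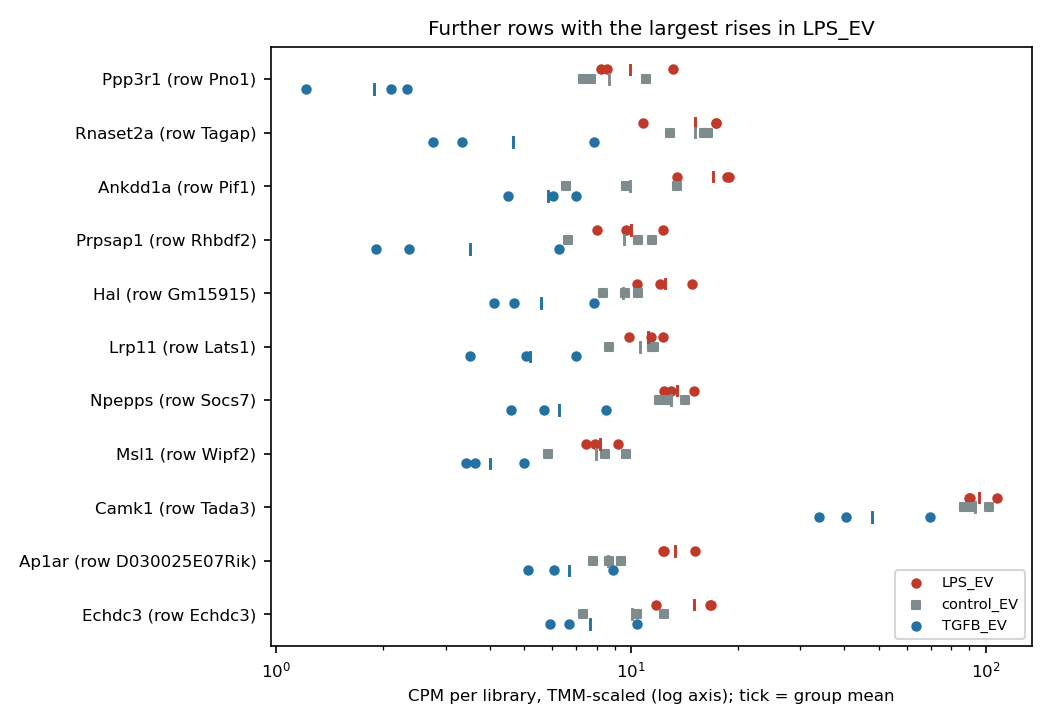
CPM per library on a log axis (points) and group means (ticks) for further rows called higher in LPS_EV, with the gene met and the row label in brackets. In the Ppp3r1, Rnaset2a, Npepps and Camk1 rows the control_EV points lie with LPS_EV, and the TGFB_EV points lie lower.

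Over all called rows, the control_EV mean lay between the other means in 75 of the 87 that were higher in LPS_EV, above LPS_EV in 10 and below TGFB_EV in 2. It lay between them in all 33 that were lower. These rows were called for a difference between LPS_EV and TGFB_EV, so a group outside the test is likely to lie between them. The share over all rows tested is not given here, and the counts are a description. On the log2 scale it was nearer to LPS_EV in 43 of the 87 and nearer to TGFB_EV in 44, and for the 33 these counts were 10 and 23.

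Rows that were lower in LPS_EV, and so higher in TGFB_EV, met genes of protein folding, transcription, the cytoskeleton and other functions. The row labelled Cutal (chromosome 2, 34874396 to 34892132) met Hspa5, the main chaperone of the endoplasmic reticulum (BiP), by 222 bp and the neighbouring gene Rabepk by 246 bp. It had 888, 1030 and 935 CPM in LPS_EV, 1610, 1730 and 1110 in TGFB_EV and 1060, 1050 and 1210 in control_EV. Replicates 1 and 2 of TGFB_EV were the high libraries, and replicate 3 was at the level of control_EV (log2 fold change -0.64 with SE 0.12, adjusted p = 0.0216, and -0.81 without replicate 3).

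This row was the only one called among 25 that met genes of the unfolded protein and integrated stress responses, but the log2 fold change was above 0 in 2 of the 25, against 5389 of all 10569 rows. Their median was -0.13. The rows that met Pdia4 (labelled Zfp786), a disulfide isomerase, and Dnajb11 (labelled Gm8130), a BiP co-chaperone, had 238 ± 10.2 and 69.3 ± 1.4 CPM in LPS_EV and 283 ± 9.67 and 88.8 ± 11.2 in TGFB_EV, with no overlap (log2 fold changes -0.25 and -0.36). The row that met Hsp90b1, labelled Stab2, had 621 ± 19.5 and 729 ± 56.1 CPM (log2 fold change -0.23). None of these 3 passed (adjusted p = 0.0722, 0.0730 and 0.0976). Rows that met Atf6, Ern1 and Xbp1, the sensors and a transcription factor of the same response, had folds of 0.987, 0.992 and 0.964 in LPS_EV over TGFB_EV. No row of the list was called when any LPS_EV library or TGFB_EV replicate 1 was left out. Without TGFB_EV replicate 3, 11 of the 25 were called lower in LPS_EV and 1, which met Psat1, higher, where 5.19% and 6.04% of all rows were.

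The row labelled Gm40477 met Fos, an immediate-early transcription factor subunit of AP-1. It had 34.9, 25.1 and 28.1 CPM in LPS_EV and 48.5, 55.5 and 37.4 in TGFB_EV, with 41.9, 37.2 and 44.2 in control_EV. The highest LPS_EV value was just under the lowest of TGFB_EV (log2 fold change -0.68 with SE 0.15, adjusted p = 0.0424, and -0.83 without TGFB_EV replicate 3). The rows labelled Slc25a16 and Gm16128 both met Ccar1, a regulator of transcription and the cell cycle. The first had 204, 197 and 205 CPM in LPS_EV and 316, 318 and 255 in TGFB_EV, and the second 56.2, 50.1 and 52.1 against 86.1, 88.8 and 70.2. Both rows showed the same order, with control_EV means of 268 and 71.2 between the groups (log2 fold changes -0.55 and -0.63, adjusted p = 0.00505 and 0.00786). The row labelled Dna2, which met Tet1, an enzyme that oxidises methylcytosine, had 22.7 ± 2.97 and 35.3 ± 6.61 CPM (log2 fold change -0.64, adjusted p = 0.0489).

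Of 25 rows meeting cytoskeleton and adhesion genes, 2 were called lower in LPS_EV and none higher (median -0.01). None was called without LPS_EV replicate 3. Without TGFB_EV replicate 3 there were 4 higher and 4 lower, beside 6.04% and 5.19% of all rows. The row labelled 2010310C07Rik (chromosome 6, 42370671 to 42381215) met Zyx, which encodes zyxin of focal adhesions, by 1727 bp. It had 230, 225 and 216 CPM in LPS_EV, 311, 333 and 290 in TGFB_EV and 263, 315 and 305 in control_EV. LPS_EV was the group apart here (log2 fold change -0.48 with SE 0.07, adjusted p = 0.00319). A smaller row that met Zyx, labelled Epha1, had 12 ± 1.41 and 8.11 ± 4.18 CPM, the opposite order, and was not called (adjusted p = 0.383). The row labelled Flnc met its own gene, which encodes the actin cross-linker filamin C, and had 2380, 2300 and 2260 CPM in LPS_EV and 3010, 2930 and 2720 in TGFB_EV, with 2530, 2600 and 2650 in control_EV. The 3 groups were in order without overlap between LPS_EV and TGFB_EV (log2 fold change -0.32 with SE 0.05, adjusted p = 0.0119). The rows that met Tpm3 (labelled Nup210l) and Myh9 (labelled Txn2), a tropomyosin and a non-muscle myosin, had -0.20 and -0.21 and were not called (adjusted p = 0.110 and 0.114).

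Among the named lower rows the largest fold was at a low level. The row labelled B4galnt1 met Avil, an actin-binding protein of the villin family, and had 3.04, 4.63 and 3.15 CPM in LPS_EV and 14.7, 18.8 and 4.98 in TGFB_EV. TGFB_EV replicate 3 was close to LPS_EV and within the range of control_EV, 4.30 to 9.57 (log2 fold change -1.82 with SE 0.37, adjusted p = 0.0360, and -2.21 without that library). The row labelled Slc26a10 also met Avil and was the called row whose groups overlapped (8.01 ± 2.78 and 35.3 ± 23.2 CPM, log2 fold change -2.13, adjusted p = 0.0320). The rows labelled Dnase2a, Cpt1b, Nme7, Relb, Cnot9, H2-M9 and Erlin1 met Neto2, Sbf1, Slc19a2 with F5, Ercc1, Plcd4 with Zfp142, Ppp1r11 and Erlin1. Their log2 fold changes ran from -0.81 for the Neto2 row to -0.37 for the Erlin1 row, with adjusted p between 0.0216 and 0.0494.

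**Figure D4:**
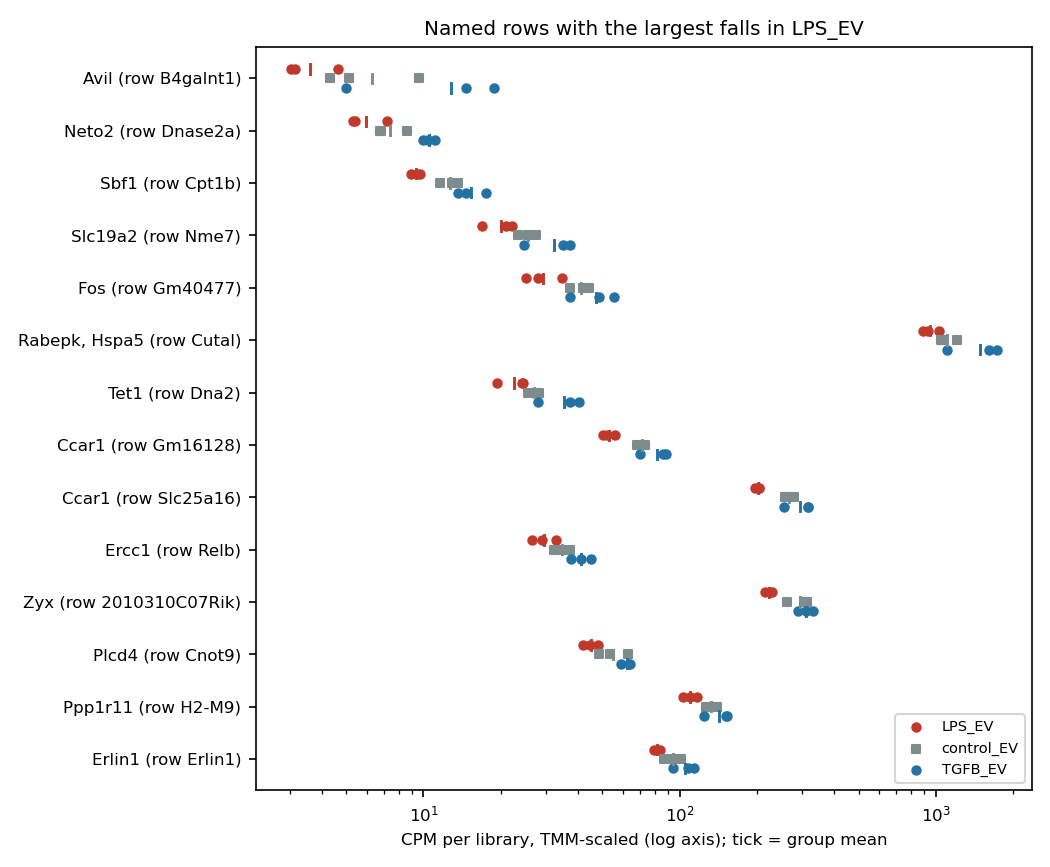
CPM per library on a log axis (points) and group means (ticks) for the 14 named rows with the largest falls in LPS_EV, with the gene met and the row label in brackets. LPS_EV lies to the left of TGFB_EV in each row. In the row that met Rabepk and Hspa5 and in the Avil row, the lowest TGFB_EV point lies among the control_EV points.

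Few genes of the TGF-β pathway itself could be followed. A tested row met 10 of 36 genes listed as its receptors, inhibitors and targets, and the rest could not be assessed. None of the 10 rows was called in either direction (median -0.06). The row labelled Tgfbr1, which met its own gene, the type I receptor, had 264, 266 and 277 CPM in LPS_EV and 295, 277 and 296 in TGFB_EV. The highest LPS_EV and lowest TGFB_EV values were within 1 CPM of each other as rounded here (log2 fold change -0.11 with SE 0.06, adjusted p = 0.428). The rows that met Tgfb1 (labelled Gm45225), Ski (labelled Pex10) and Skil (labelled Prkci), the ligand and a pair of SMAD co-repressors, had values of 0.08, -0.18 and -0.23 on that scale (adjusted p = 0.593, 0.221 and 0.503). The row labelled Bambi, a decoy receptor that met its own gene, had 20.2, 14.7 and 20.9 CPM against 10.5, 9.97 and 22.6, so that the groups overlapped through TGFB_EV replicate 3 (log2 fold change 0.36, adjusted p = 0.524). Without that library its log2 fold change was 0.86. The Bambi row and a row that met Itgav were then called higher in LPS_EV, beside 6.04% of all rows.

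Of 24 alternative-activation genes 9 were met by a tested row, and 1 of these 9 rows was called, lower in LPS_EV (median -0.12). It is labelled Klf4 and met its own gene, a transcription factor of macrophage polarisation, in 1 or more but not all 4 fits, and had 279, 263 and 261 CPM in LPS_EV and 341, 314 and 329 in TGFB_EV (log2 fold change -0.29 with SE 0.06, adjusted p = 0.0400). TGFB_EV lay at the control_EV mean of 323. The call was lost when any LPS_EV library or TGFB_EV replicate 1 was left out. Without TGFB_EV replicate 3 the list had 2 calls higher and 2 lower, beside 6.04% and 5.19% of all rows. The lectin genes of this state were not called: the row labelled Alox12, which met Mgl2, had 74.1, 26.1 and 36.1 CPM against 77.8, 48.7 and 110, and the Mrc1 row, whose label and gene met were the same, had 753, 610 and 634 against 702, 703 and 865. Both overlapped between groups (log2 fold changes -0.80 and -0.18, adjusted p = 0.222 and 0.342). With 1 library left out the values ran from -1.34 without LPS_EV replicate 1 to -0.48 without TGFB_EV replicate 3 for Mgl2, and from -0.28 to -0.08 for Mrc1 with the same libraries left out. The row labelled Cd72, which met its own gene, an inhibitory receptor, and Tesk1, was not called (log2 fold change -0.22, adjusted p = 0.471, and -0.02 without TGFB_EV replicate 3). Of 30 homeostatic microglia genes 13 were met by a tested row, and none of these 13 rows was called (median 0.07). Without TGFB_EV replicate 3, 4 of them were called higher, beside 6.04% of all rows. The largest difference among those named was in the row labelled Slc6a7, with 0.19 (adjusted p = 0.352). That row met Csf1r, the growth factor receptor of microglia.

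Metabolic lists held no called row. All but 1 of 14 rows meeting glycolysis genes had a log2 fold change above 0 (median 0.11), and none was called. The row labelled Hk2, which met its own gene, hexokinase 2, had 56.1, 55.3 and 51.2 CPM in LPS_EV and 42.5, 36.0 and 50.3 in TGFB_EV, with 49.8, 57.9 and 49.2 in control_EV. TGFB_EV replicates 1 and 2 were the low libraries (log2 fold change 0.34, adjusted p = 0.163). Without TGFB_EV replicate 3, 7 of the 14 were called higher, those that met Hk1, Hk2, Pfkp, Pfkm, Aldoa, Tpi1 and Pgam1, beside 6.04% of all rows. None was called among 20 rows for oxidative phosphorylation (median 0.00), 18 for cholesterol synthesis and export (0.05), 12 for hypoxia (-0.01) or 24 for the cell cycle (0.03). The calls in these lists without TGFB_EV replicate 3 were 1 higher, 3 higher and 1 lower, 1 higher, and 2 higher and 2 lower. Of all rows, 6.04% were called higher and 5.19% lower in that fit.

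Of 23 rows for translation factors, 1 was called higher, that labelled St6gal1, which met the helicase gene Eif4a2 (118 ± 6.11 and 92.0 ± 9.35 CPM, log2 fold change 0.36, adjusted p = 0.0496), and the list median was -0.08. It was not called when any library other than TGFB_EV replicate 3 was left out. Without that replicate the calls of the list were mostly in the other direction, 2 higher and 7 lower, beside 6.04% and 5.19% of all rows. Of 19 rows for RNA splicing, 1 was called lower, that labelled Cnbd2, which met the splicing factor gene Rbm39 (572 ± 12.3 and 701 ± 60.3 CPM, log2 fold change -0.29, adjusted p = 0.0486), and the median was -0.10. That call too was lost when any library other than TGFB_EV replicate 3 was left out, and without that replicate 6 rows of the list were called lower. Another row that met Rbm39, labelled Gm14252, had 522 ± 12.3 and 572 ± 33.0 CPM and was not called (adjusted p = 0.303). None of 27 rows for ribosomal proteins was called (median -0.01), although the row labelled Gm20681, which met Rpl13, had 3670, 3580 and 3520 CPM against 2400, 1910 and 3320 (log2 fold change 0.50, adjusted p = 0.0823, and 0.74 without TGFB_EV replicate 3). There TGFB_EV replicates 1 and 2 were low and replicate 3 was near the other groups. None of 24 rows for lysosome and phagocytosis (median -0.03), 15 for antigen presentation (0.11) or 17 for vesicle formation and uptake (-0.04) was called. Without TGFB_EV replicate 3, 5 lysosome rows were called higher and 4 lower, and 3 antigen presentation rows higher. In the same fit 1 vesicle row and 2 ribosomal protein rows were called in each direction. Of all rows, 6.04% were called higher there and 5.19% lower, so the vesicle and ribosomal protein counts are near those shares.

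**Figure D5:**
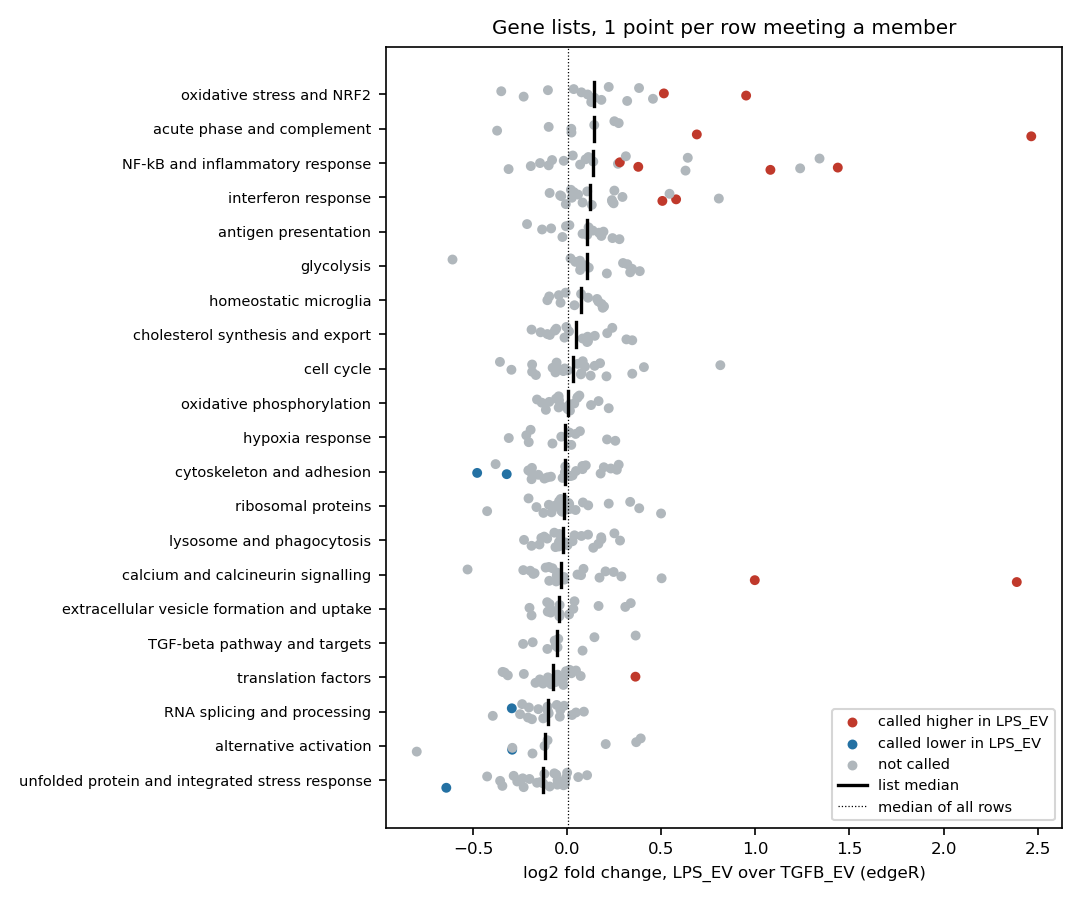
Log2 fold change of LPS_EV over TGFB_EV for each row that met a member of 21 gene lists (points; a small vertical offset separates points), with list medians as bars and the median of all rows, 0.005, as a dotted line. Rises in the inflammatory, acute-phase, interferon and oxidative stress lists come from 10 called rows in all, and most points of every list lie within 0.5 of 0.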

How the data were processed

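BV2 recipients were profiled by bulk RNA sequencing. Per the labels' protocols, column-purified total RNA was made into libraries with SMART-Seq v4 and Nextera XT, kits that do not mark strand, so reads of overlapping antisense genes are counted together. What the authors deposited are raw whole-number counts by Ensembl gene ID, in tables of the whole series; a table that repeats another and the IL-10 table were not used in the test. DESeq2 is named in the submitters' processing notes. Not given in the sources used here are the aligner, counter, genome build and annotation. Rows with no position in the annotation held 1.81% of the counts.

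The 6 columns were joined on gene ID and fitted in edgeR 4.0.16 (R 4.3.3) by quasi-likelihood with TMM scaling, after filterByExpr at 10 counts, and rows with an adjusted p (Benjamini-Hochberg, over all rows tested) under 0.05 were called. Levels are TMM-scaled CPM, as mean ± SD (n = 3) or per library, and fold changes are log2 values with standard error (SE). The test was also run on simulated data in which all libraries followed the same spread. No library stood apart there as TGFB_EV replicate 3 does here, so that case was not checked. DESeq2 1.42.0, other scalings, filters, a replicate block and leaving out each library were alternatives.

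Exons of each row (GENCODE M21, GRCm38) were moved in steps of 100 bp, within 1000 kb (on chromosome X 1900 kb below to 500 kb above), by dynamic programming with a cost of 20 for a change of displacement, or 10 for a change of at most 2 kb. The score was the likelihood of a row's level given the kind of gene met, re-estimated from the data. A stretch was supported where it scored at least 5 above displacements more than 10 kb away, and a gene was met by at least 100 bp of its exons. Named rows that were called overlapped the first gene met by 117 to 3298 bp (median 471 bp), 11 of 39 by under 200 bp, and 6 met more than 1 gene. In 90 of 97 called rows that met a gene, the first gene was the same in all 4 fits (costs of 15, 20 and 25, and ribosomal protein genes left out of the reward).

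The members and gene lists were chosen with earlier results of these data known. Counts of a list cover only the members that a tested row met, so they say nothing of its other genes. Named rows are the 14 largest rises and 14 largest falls among called rows of at least 5 CPM with separate groups and a supported protein-coding gene met (no Gm number or Rik), up to 4 members per list by the smallest p, and a set of genes always given where a tested row met them. Clec4e and Serpinb9b were met by no tested row. Rows given for a gene that another row already met, rows called without TGFB_EV replicate 3, rows that met no gene, Tmem38b and the stress sensors were named after their values were seen. Of rows that met more than 1 gene, not every gene met is reported here.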

Additional observations from a re-analysis of the deposited data

How the results depend on the processing

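Counts of called rows below are total, higher and lower in LPS_EV, where the reported fit gave 120, 87 and 33. With DESeq2's Wald test they were 244, 139 and 105, with no filter on low counts 468, 277 and 191 (22453 rows tested), and with at least 5 CPM in at least 3 libraries 74, 62 and 12 (7554 rows tested). With all 12 libraries sharing the spread they were 0, 0 and 0 (1442 rows at an unadjusted p under 0.05). Scaling by library totals only gave 20 lower rows among 106. Leaving out each library in turn gave 12 to 1229, 9 to 661 and 2 to 568: the totals were 36, 15 and 14 without LPS_EV replicates 1, 2 and 3, and 12, 66 and 1229 without TGFB_EV replicates 1, 2 and 3, of which 31, 15, 14, 11, 53 and 120 were among the 120. The cause of these shifts was not tested. DESeq2's size factors (116) and summing counts by the gene met (100) stayed within 1.5 times, as did a robust fit (120, of which 90 shared). No label says that a replicate number marks a shared batch. Same-numbered deviations correlated at -0.035, 0.01 and -0.023, and a replicate block gave 179, 122 and 57, with 116 of the 120 shared. These values do not settle whether the samples were paired. No named row that was called changed direction under these settings, which is little of a check where the groups did not overlap. The Tlr4 row, not called, went from -0.08 to 0.01 without TGFB_EV replicate 3 or without LPS_EV replicate 2. Levels near 3 counts, 0.238 to 0.286 CPM, cannot show a difference.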

Other observations

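Some called rows outside the naming rule, picked after their values were known, met genes of macrophage function. The row labelled Gm32141, which met Lyz2, the lysozyme of macrophages, had 2400, 3160 and 2970 CPM in LPS_EV and 2100, 1980 and 2210 in TGFB_EV, with 2510, 2420 and 2380 in control_EV (edgeR log2 fold change 0.44, adjusted p = 0.0217). LPS_EV replicate 1 was its lowest LPS_EV library and lay among the control values. The row labelled Dtx4 met its own gene and Mpeg1, a pore-forming protein of phagocytes, and had means of 269 and 178 CPM (log2 fold change 0.60, adjusted p = 0.0273). The rows labelled Gm38262 and Tmem50b met Ikbke, a kinase of innate signalling, and Ifnar2, an interferon receptor chain, with means of 17.3 and 11.3, and of 78.4 and 48.8 CPM (adjusted p = 0.0489 and 0.0110). The row labelled Dyrk3, which met Mapkapk2, a kinase of the p38 stress pathway, had 801 and 592 CPM (adjusted p = 0.0424).

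Rows that met the glutathione transferase genes Gstm2 (labelled Ampd2) and Gstm1 (labelled Gnai3) had 689 and 463, and 1180 and 872 CPM (log2 fold changes 0.57 and 0.44, adjusted p = 0.0152 and 0.0312). These genes are closely related neighbours, so their reads may be split between them. The row labelled Aqp3, which met its own gene, an aquaglyceroporin, had 40.6, 57.4 and 41.0 CPM in LPS_EV and 25.1, 22.1 and 28.9 in TGFB_EV, with a control_EV mean of 33.0 (log2 fold change 0.87, adjusted p = 0.0119). Of rows that were lower in LPS_EV, that labelled Dnaja1, which met its own gene, a cytosolic co-chaperone, and Smu1, had 546 and 683 CPM (adjusted p = 0.0216), and that labelled Ywhaz, a 14-3-3 protein, had 2290 and 2780 CPM (adjusted p = 0.0360).

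Among the 120 called rows, TGFB_EV replicate 3 lay nearer to the LPS_EV mean than to the mean of the other TGFB_EV libraries in 47, against 1 each for TGFB_EV replicates 1 and 2. That count covers called rows only. The log2 CPM of replicate 3 correlated across rows with the control_EV libraries at 0.9919 to 0.9927, and with TGFB_EV replicates 1 and 2 at 0.9908 and 0.9887. With the LPS_EV libraries it correlated at 0.9908 to 0.9916. TGFB_EV replicate 1 correlated with control_EV at 0.9902 to 0.9922, so these ranges overlap. Rows are not independent replicates, and these values are a description.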
